A study of Homo sapiens with 4 samples.

Results

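The X-linked cluster that runs from miR-532 to miR-502 is a group of 8 microRNA (miRNA) hairpins inside CLCN5, the gene of a chloride/proton exchanger of endosomes. Its members were taken as every row of the count table named miR-188, miR-362, miR-500a, miR-500b, miR-501, miR-502, miR-532 or miR-660, with either arm. This gave 13 of the 826 listed mature miRNAs, out of 16 possible arms. The counts came from small RNA sequencing of H661, a long-established culture of human large cell lung carcinoma cells. Entinostat, a drug that blocks class I histone deacetylases, was given at 2.5 µM for 8 h to the cells of 2 libraries. The cells of the other 2 libraries received the solvent dimethyl sulfoxide (DMSO), also for 8 h. The comparison asks whether miRNA levels change with the drug. The labels name no engineered allele in either group.

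A miRNA hairpin is cut from a longer transcript and then trimmed to a short duplex, whose 5p and 3p arms come from the 2 sides of the hairpin. One arm is usually loaded into Argonaute and kept, and pairs with target messages mainly through its seed, bases 2 to 8. Hairpins inside an intron of a protein gene are often made from the host transcript, and a histone deacetylase inhibitor acts on chromatin and so on transcription. In earlier work miR-532-5p was tied to the transcription factor gene RUNX3, miR-362-5p to the deubiquitinase gene CYLD and miR-660-5p, in lung cancer cells, to MDM2, the ligase that restrains p53.

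Totals ran from 547875 to 938559 miRNA counts per library. Levels are in CPM, counts scaled to a total of 1e+06. Apart from the limits given next, the totals were adjusted with TMM, edgeR's trimmed mean factors. With entinostat a count of 0 allowed a level of at most 5.48 and 3.98 CPM, and with DMSO at most 3.20 and 5.34 CPM. These limits are 3 counts over the library total, and hold only if a listed 0 means no read. That is not certain, since no cluster row held a count of a single read in any library. Epithelial miRNAs, the lineage markers of a carcinoma line, were scarce. Their 5 listed rows summed to 91.9 and 81.6 CPM with entinostat and 75.9 and 56.9 CPM with DMSO, and miR-200a, miR-141 and miR-429 had no row. Listed markers of blood, muscle, liver and neurons were at or near 0, with at most 12.9 CPM in any library, for muscle. Blood rested on miR-150-5p alone, muscle on miR-1-3p and miR-133a-3p, liver on miR-122-5p and neurons on miR-124-5p. For blood, miR-451a, miR-144, miR-142 and miR-223 had no row, and for muscle miR-133b and miR-206 had none. Blood markers summed to 5.51 and 0 CPM with entinostat against 0 and 3.56 CPM with DMSO, liver to 0 and 0 against 5.34 and 0 CPM, and neurons to 0 and 2.63 against 0 and 0 CPM. Whether the 2 libraries of a treatment had cultures of their own is not stated in the labels. The p-values below therefore rest on a spread between libraries that may be technical.

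The hairpins lie within 11.5 kb on the plus strand of chromosome X (GRCh38, chrX:50003148-50014683). In GENCODE release 29 the order in the direction of transcription is miR-532, miR-188, miR-500a, miR-362, miR-501, miR-500b, miR-660 and miR-502. All 8 are intronic in 3 of the 9 annotated CLCN5 transcripts and overlap 0 exons of the gene. The other 6 transcripts start downstream of the last hairpin. The first hairpin, miR-532, is at chrX:50003148-50003238, and only 264 bases separate it from miR-188. The last, miR-502, is at chrX:50014598-50014683.

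The cluster holds near-copies, and which of them can be told apart by a short read decides what each count means. Of the 13 listed rows, 12 matched a mature sequence by name in the RefSeq table for GRCh38.p14. The arms whose sequences overlap most are shown 5′ to 3′ with the seed in capitals, after both arms of miR-532, the most counted hairpin:
miR-532-5p: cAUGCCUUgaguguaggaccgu
miR-532-3p: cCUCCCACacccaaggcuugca
miR-500a-3p: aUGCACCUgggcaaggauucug
miR-502-3p: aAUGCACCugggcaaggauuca
miR-501-3p: aAUGCACCcgggcaaggauucu
miR-500b-3p: gCACCCAGgcaaggauucug
miR-500a-5p: uAAUCCUUgcuaccugggugaga
miR-500b-5p: aAUCCUUGcuaccugggu
miR-362-5p: aAUCCUUGgaaccuaggugugagu
miR-501-5p: aAUCCUUUgucccugggugaga

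Among the 3p arms, miR-500a-3p and miR-502-3p share an unbroken run of 20 bases out of 22 in each. Their annotated ends are offset by 1 base, so their seeds are UGCACCU and AUGCACC. The seed of miR-502-3p is also that of miR-501-3p, which departs from it further along and shares a run of 12 bases with it. The 3p arm of miR-500b has the seed CACCCAG and a run of 13 bases in common with miR-500a-3p. Among the 5p arms, miR-500b-5p is wholly contained in miR-500a-5p, from base 2 of the longer arm on, and has the seed of miR-362-5p. The 12 listed rows with a sequence, all but miR-660-5p, had 10 different seeds. These occurred in 0 of the 717 rows outside the cluster that had a RefSeq mature sequence, of 813 in all. When the 3 arms with no row were searched too, 1 of the 717 matched. This was miR-329-3p of chromosome 14, which shared ACACACC with miR-362-3p. Its levels were 494.4 and 550.2 CPM with entinostat and 626.3 and 675.9 CPM with DMSO (log2 fold change -0.31, edgeR adjusted p = 0.595).

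The hairpins of miR-500a and miR-500b show why their 5p arms cannot be separated. The capitals mark the full miR-500a-5p of 23 bases, which occurs 1 time in each:
miR-500a hairpin: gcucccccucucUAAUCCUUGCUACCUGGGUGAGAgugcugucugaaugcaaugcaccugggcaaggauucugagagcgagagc
miR-500b hairpin: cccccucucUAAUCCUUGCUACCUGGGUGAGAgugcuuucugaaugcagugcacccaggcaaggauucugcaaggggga
These are chrX:50008431-50008514 and chrX:50010672-50010750 on the plus strand. A read of miR-500a-5p could come from either hairpin. How the authors assigned such reads is not given in the sources used here. So miR-500a-5p and miR-500b-5p, and miR-500a-3p and miR-502-3p, are uncertain singly and are also given as sums. The printed miR-501-3p matches miR-500a-3p on both sides of a mismatch, with a run of 13 bases after it. Whether mismatches were allowed is not given either, so the level of miR-501-3p and the arm ratio of miR-501 are uncertain singly too.

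The cluster contributed a small and even share of the miRNA counts, with miR-532-5p far ahead of the rest. All 13 rows together held 1939 and 2746 counts with entinostat and 3496 and 2058 with DMSO. Those were 0.354% (exact Clopper-Pearson 95% interval 0.338 to 0.370%) and 0.365% (0.351 to 0.378%) of the entinostat libraries. In the DMSO libraries they were 0.372% (0.360 to 0.385%) and 0.367% (0.351 to 0.383%). The means were 0.359 ± 0.00757% with entinostat and 0.370 ± 0.00421% with DMSO (SD, n = 2), a log2 ratio of -0.04. Both entinostat shares lay below both DMSO shares, and the 4 intervals overlapped. Such intervals cover at most the counting error within a library. They may be too narrow even for that, since reads without molecular identifiers are not independent molecules.

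**Figure D1:**
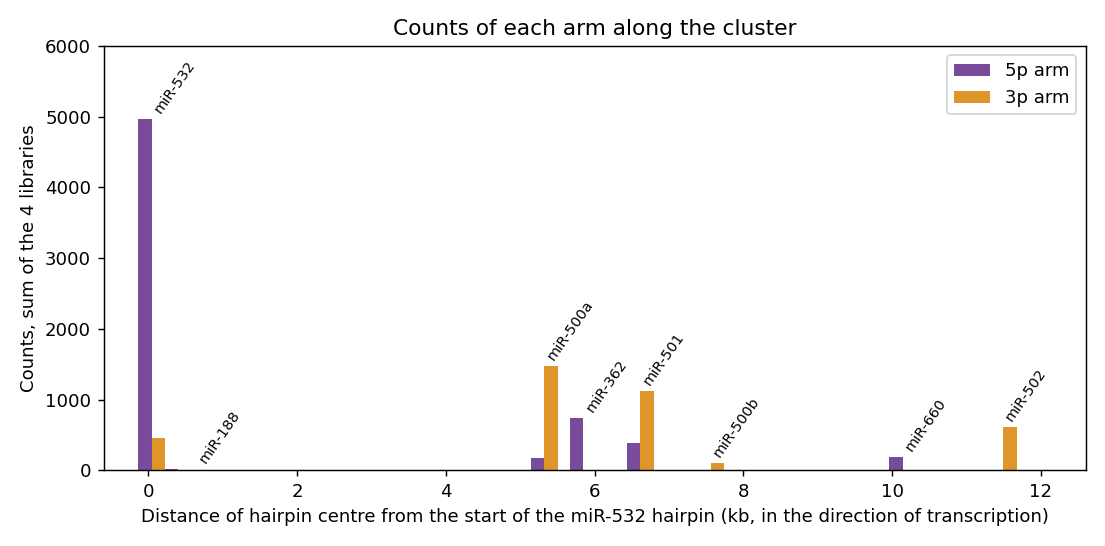
Counts of the 5p arm (purple) and the 3p arm (orange) of each hairpin, by row name and summed over the 4 libraries, against the distance of the hairpin centre from the start of the miR-532 hairpin in kb. The 4971 counts of miR-532-5p stand apart, and the dominant arm is 5p for miR-532 and 3p for miR-500a and miR-501; where a single bar is drawn the other arm has no row or few counts.

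Over the 4 libraries, the miR-532 hairpin gave 53.1% of the cluster's counts. By row name, it was followed by miR-500a with 16.1%, miR-501 with 14.7%, miR-362 with 7.17%, miR-502 with 5.93%, miR-660 with 1.90%, miR-500b with 1.02% and miR-188 with 0.156%. The 175 counts of miR-500a-5p could come from miR-500a or miR-500b. Without them miR-500a would keep the 1470 counts of its 3p arm, fewer than the 1506 of miR-501. The places of miR-500a and miR-500b in this order are therefore uncertain. Counts did not follow the order along the chromosome: miR-188, the nearest neighbour of miR-532, had 16 counts in all, against 5432 for both arms of miR-532. A read of a mature miRNA spans the whole molecule, so levels need no length correction, but adapter ligation recovers sequences unequally. Differences between miRNAs are therefore differences in counts.

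Levels below are likewise CPM scaled with TMM. The order of mean level was miR-532-5p, miR-500a-3p, miR-501-3p, miR-362-5p, miR-502-3p, miR-532-3p, miR-501-5p, miR-660-5p, miR-500a-5p, miR-500b-3p, miR-188-5p, miR-660-3p and miR-500b-5p. Neighbours in this order had ranges over the 4 libraries that did not overlap, with these exceptions: miR-532-3p with miR-501-5p, miR-660-5p with miR-500a-5p, and the last 3 with each other.

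**Figure D2:**
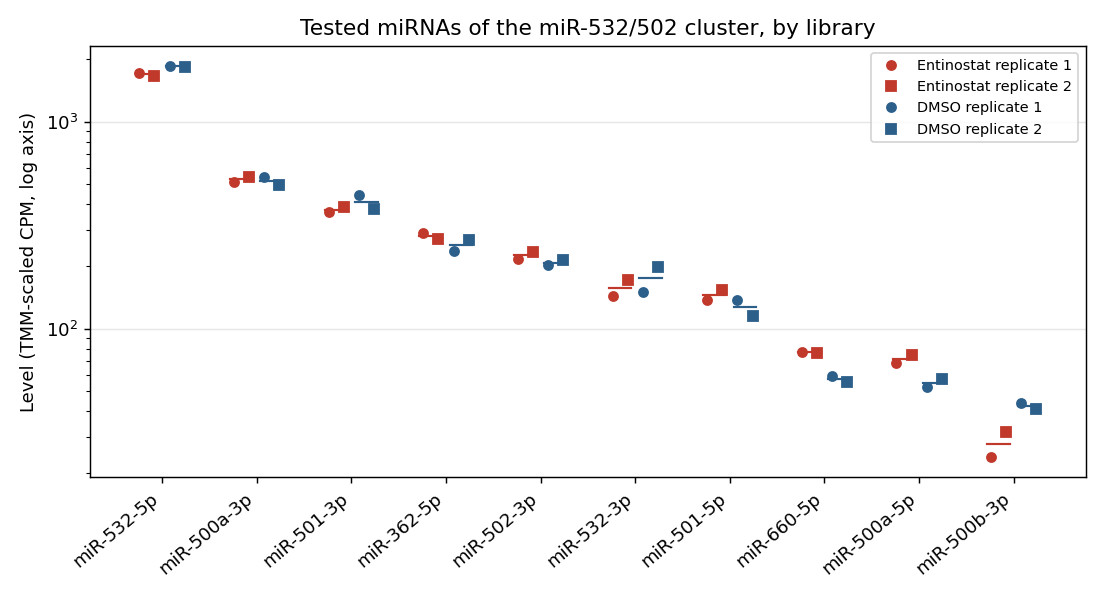
Level of each tested cluster miRNA in TMM-scaled CPM on a log axis, with entinostat libraries in red on the left and DMSO libraries in blue on the right, circles for replicate 1, squares for replicate 2 and short lines for group means. The highest, miR-532-5p, sits between 1666 and 1865 CPM, and the lowest, miR-500b-3p, between 23.9 and 43.8 CPM.

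None of the cluster's miRNAs passed the test between entinostat and DMSO. The test was edgeR's quasi-likelihood test with Benjamini-Hochberg adjustment over all 401 miRNAs with enough counts, and a call needed an adjusted p under 0.05. Of the 13 cluster rows 10 had enough counts, and 0 of these were called higher and 0 lower. The share called over all tested miRNAs was 0% in each direction. At an unadjusted p under 0.05 there were 0 of the 10 cluster rows, against 27 of 401 (6.73%), and DESeq2 and limma-voom also called 0 of the cluster. The lowest adjusted p in the cluster was 0.595. Of the 10 tested rows, 6 lay above 0 and 4 below, with a median log2 fold change of 0.07 (range -0.59 to 0.42). Over all tested miRNAs 208 lay above 0 and 193 below, with a median of 0.00466. Upper quartile scaling moved that median to 0.12 and every cluster value up by about as much, so miR-532-5p came to -0.017, and turned none of the 10. With TMM scaling, the 95% interval of the fold change lay within 1.5-fold in either direction for 6 of the 10 and within 2-fold for 9.

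The leading arm, miR-532-5p (hsa-miR-532-5p in the table), was at 1711 and 1666 CPM with entinostat and 1865 and 1830 CPM with DMSO. Both entinostat libraries lay below both DMSO libraries. The means were 1689 ± 31.6 CPM with entinostat and 1848 ± 24.5 CPM with DMSO (SD, n = 2). The log2 fold change was -0.13 (SE 0.09, 95% interval -0.33 to 0.07, edgeR adjusted p = 0.640). In fold terms the interval ran from 0.795 to 1.05. It ranked 72nd and 74th among the 826 rows with entinostat and 69th and 70th with DMSO. Within the cluster, miR-532-5p made up 48.0% and 46.1% of the counts with entinostat and 49.9% and 50.0% with DMSO.

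Its partner arm, miR-532-3p, had 143.4 and 171.1 CPM with entinostat and 150.7 and 199.2 CPM with DMSO. The groups overlapped, and the DMSO libraries were 0.40 apart on the log2 scale, 2.21 times the standard deviation that counting alone gives. The log2 fold change was -0.12 (95% interval -0.55 to 0.31, edgeR adjusted p = 0.883). It turned to 0.043 without DMSO replicate 2 and stood at -0.34 when DMSO replicate 1 was dropped, -0.26 when entinostat replicate 2 was dropped and -0.018 when entinostat replicate 1 was dropped. For the other 9 tested rows in DMSO, and for all 10 in entinostat, the 2 libraries of a treatment differed by less than 2 counting standard deviations. The other hairpin beside it, miR-188, known in mice for steering bone marrow stromal cells between bone and fat, was barely detected. Its 5p arm had 5 and 3 counts with entinostat and 6 and 2 with DMSO, too few for testing.

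The 3p arms of the miR-500 type were the next most counted. For miR-500a-3p the levels were 512.8 and 538.4 CPM with entinostat and 537.6 and 496.3 CPM with DMSO. The groups overlapped, with a log2 fold change of 0.02 (95% interval -0.24 to 0.28, edgeR adjusted p = 0.964), which turned to -0.059 without DMSO replicate 2 and to -0.022 without entinostat replicate 2. Its near-copy miR-502-3p had 216.9 and 235.6 CPM with entinostat and 202.0 and 215.2 CPM with DMSO. The entinostat libraries lay above the DMSO libraries by a narrow gap, and the log2 fold change was 0.13 (-0.19 to 0.45, edgeR adjusted p = 0.796), or 0.064 and 0.057 with DMSO replicate 1 or entinostat replicate 2 left out. Summed, they were at 729.7 and 774.0 CPM with entinostat and 739.6 and 711.5 CPM with DMSO, and overlapped.

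Another arm of this type, miR-501-3p, which in rodent neurons acts on a glutamate receptor subunit, stood at 365.8 and 385.7 CPM with entinostat and 443.5 and 378.9 CPM with DMSO. DMSO replicate 1 was the high library, and the groups overlapped (log2 fold change -0.14, 95% interval -0.43 to 0.16, edgeR adjusted p = 0.774). Without DMSO replicate 1 the value came to -0.022, and to -0.27 if DMSO replicate 2 was left out. For miR-500b-3p the counts were 13 and 24 with entinostat and 41 and 23 with DMSO, or 23.9 and 31.6 CPM against 43.8 and 40.9 CPM. Both entinostat libraries were lower, and the fold of 0.664 was the farthest below 1 among the 10 tested rows (log2 fold change -0.59, 95% interval -1.31 to 0.13, edgeR adjusted p = 0.595). Together the 4 arms of this type summed to 1119 and 1191 CPM with entinostat and 1227 and 1131 CPM with DMSO, which overlapped.

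The 3 tested 5p arms of this type, miR-362-5p, miR-501-5p and miR-500a-5p, had log2 fold changes above 0. For miR-362-5p the libraries were at 288.6 and 269.8 CPM with entinostat and 236.2 and 268.6 CPM with DMSO. The groups were separated by little more than 1 CPM, and the log2 fold change was 0.15 (95% interval -0.16 to 0.47, edgeR adjusted p = 0.741), or 0.04 and 0.094 with DMSO replicate 1 or entinostat replicate 1 left out. The level of miR-501-5p was 137.8 and 154.0 CPM with entinostat and 137.9 and 115.6 CPM with DMSO. Entinostat replicate 1 and DMSO replicate 1 were level, so the groups overlapped (log2 fold change 0.19, -0.20 to 0.59, edgeR adjusted p = 0.741). With DMSO replicate 2 or entinostat replicate 2 left out it was 0.06 or 0.097, and 0.33 with DMSO replicate 1 left out.

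For miR-500a-5p there were 37 and 57 counts with entinostat and 49 and 32 with DMSO, or 68.0 and 75.0 CPM against 52.4 and 56.9 CPM. Both entinostat libraries were higher, with a fold of 1.32 (log2 fold change 0.40, 95% interval -0.11 to 0.92, edgeR adjusted p = 0.595). Its contained copy miR-500b-5p had 0 and 3 counts with entinostat and 0 and 0 with DMSO, and adding it gave 68.0 and 79.0 CPM against 52.4 and 56.9 CPM. The 4 arms of this 5p type together made up 13.9% and 13.9% of the cluster's counts with entinostat and 11.4% and 12.1% with DMSO. As CPM they summed to 494.4 and 502.8 with entinostat and 426.4 and 441.1 with DMSO, without overlap. This grouping was made by sequence with the values known, and no test was run on the sum. All 5p rows of the cluster, miR-532-5p among them, summed to 2292 and 2250 CPM with entinostat and 2357 and 2330 CPM with DMSO. In that sum the entinostat libraries were the lower ones, also without overlap and also untested.

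Of the 10 tested rows, miR-660-5p, from the hairpin next to last in the cluster, had the value farthest above 0. It had 42 and 58 counts with entinostat and 55 and 31 with DMSO, or 77.2 and 76.3 CPM against 58.8 and 55.1 CPM. The entinostat libraries lay above both DMSO libraries, with a fold of 1.34 (log2 fold change 0.42, SE 0.21, 95% interval -0.07 to 0.91, edgeR adjusted p = 0.595). Its 3p arm had 5 and 2 counts with entinostat and 2 and 0 with DMSO, too few for testing.

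**Figure D3:**
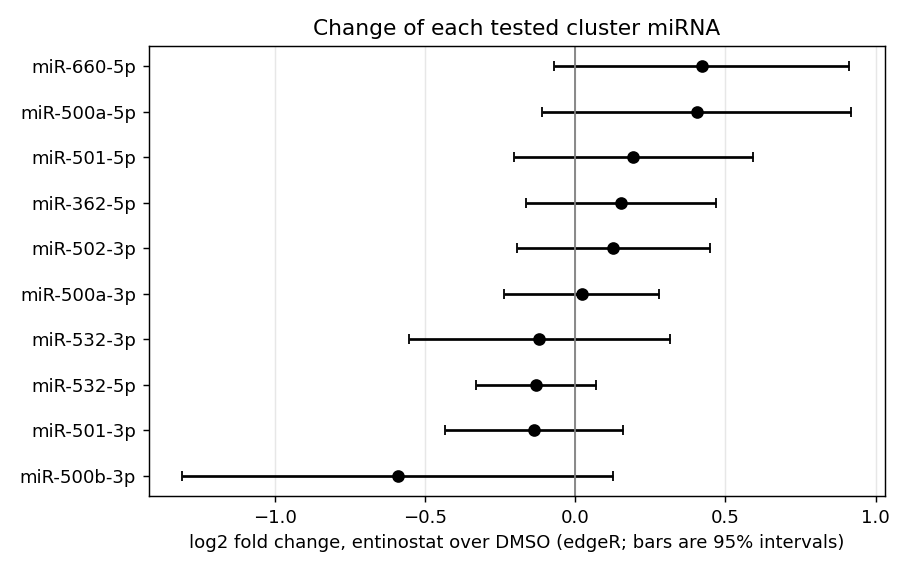
Log2 fold change of each tested cluster miRNA, entinostat over DMSO, from the edgeR fit, with 95% intervals. Every interval crosses 0, and the points run from -0.59 for miR-500b-3p to 0.42 for miR-660-5p.

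In 6 of the 10 tested cluster rows no entinostat library fell among the DMSO libraries, 4 higher and 2 lower with entinostat. Over all tested miRNAs the groups were apart in 40.6%, 20.7% higher and 20% lower. The 4 higher rows were miR-660-5p, miR-500a-5p, miR-362-5p and miR-502-3p, and the 2 lower rows were miR-532-5p and miR-500b-3p. With 10 rows, several of which may share reads, nothing particular to the cluster is read from this count.

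Both arms of a hairpin are counted in the same library, so the ratio of their counts does not depend on how libraries are scaled. The 5p arm of miR-532 made up 92.3% and 90.7% of both arms' counts with entinostat and 92.5% and 90.2% with DMSO. Entinostat and DMSO interleaved, and the log2 ratio of 5p to 3p counts differed by 0.01, entinostat minus DMSO. The 3p reads of miR-501 may be mixed with those of miR-500a-3p. For miR-501 the 5p arm held 27.4% and 28.5% of the counts with entinostat and 23.7% and 23.4% with DMSO. The mean log2 ratios were -1.36 ± 0.06 with entinostat and -1.69 ± 0.02 with DMSO (SD, n = 2), a difference of 0.33. For miR-500a, whose 5p reads may also come from miR-500b, the shares were 11.7% and 12.2% with entinostat and 8.88% and 10.3% with DMSO. Its mean log2 ratios were -2.87 ± 0.05 with entinostat and -3.23 ± 0.17 with DMSO (SD, n = 2), a difference of 0.36. That difference came to 0.24 with DMSO replicate 1 left out and to 0.48 with DMSO replicate 2 left out.

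In both miR-501 and miR-500a the entinostat libraries had the higher 5p share without overlap. The exact permutation test gave p = 0.333 for each (two-sided, 0.5 after Benjamini-Hochberg adjustment over the 3 hairpins tested) and p = 1 for miR-532. The smallest p this design allows, 2 libraries in each group, is 0.333. Among all 78 hairpins with 10 or more counts of each arm in every library, the ratios of the treatments did not overlap in 32.1%, and they were higher with entinostat in 19.2%. A difference at least as large as that of miR-501 was seen in 25 of the 78 and one at least as large as that of miR-500a in 22. The shares with 5p for miR-501 and miR-500a had exact 95% intervals that overlapped between the treatments, such as 22.2 to 33.1% in entinostat replicate 1 and 20.2 to 27.5% in DMSO replicate 1 for miR-501.

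**Figure D4:**
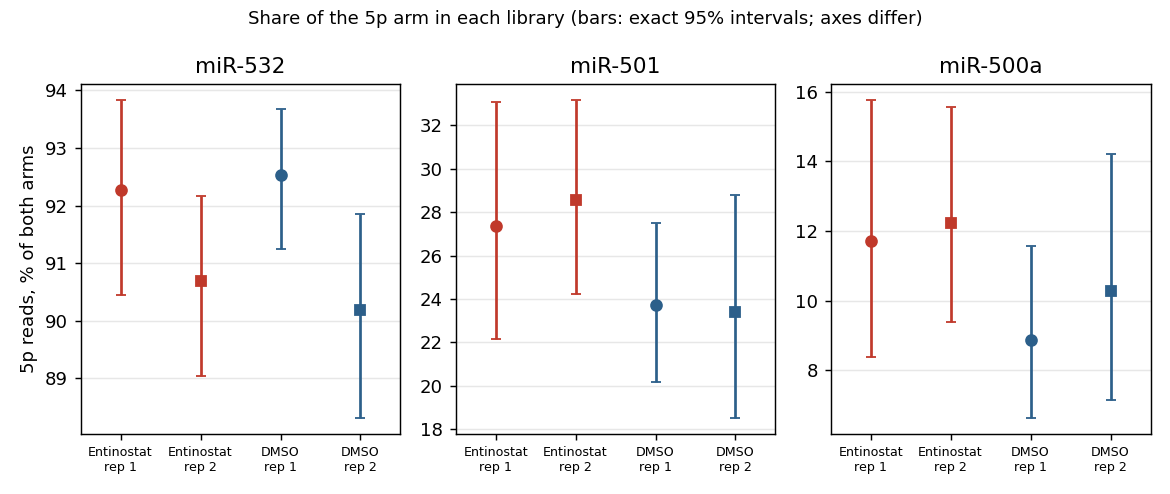
Share of the 5p arm among the counts of both arms for miR-532, miR-501 and miR-500a in each library, entinostat in red and DMSO in blue, with exact 95% intervals; the 3 vertical axes differ and do not start at 0. For miR-501 the entinostat libraries are at 27.4% and 28.5% and the DMSO libraries at 23.7% and 23.4%, with overlapping intervals.

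Elsewhere on chromosome X, the edgeR test also called 0 miRNAs, as it did over all tested miRNAs. At an unadjusted p under 0.05 there was 1 (miR-361-3p, log2 fold change -0.21), against 6.73% of all tested miRNAs. The table held 53 other rows whose hairpins all lie on that chromosome, with 2.58% and 2.56% of the counts with entinostat and 2.54% and 2.60% with DMSO. Of the 27 tested, 15 lay above 0 and 12 below (median log2 fold change 0.04). The treatments did not overlap in 11 of the 27, against 163 of 401 (40.6%) over all tested miRNAs. Of the 53 other rows, 4 were more abundant than miR-532-5p, namely miR-363-3p, miR-221-3p, miR-222-3p and miR-361-3p.

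The pattern of miR-532-5p over the 4 libraries was most like those of miR-222-3p, miR-941 and miR-10b-5p among 229 other miRNAs of 100 CPM or more. Their root mean square distances from it, in log2 CPM centred on each miRNA's mean, were 0.0244, 0.0245 and 0.0253, against a median of 0.134. Within the cluster the distance was 0.0816 for miR-501-3p, 0.0917 for miR-500a-3p and 0.184 for its own partner arm miR-532-3p. The other tested members ranged from 0.142 for miR-502-3p to 0.293 for miR-500b-3p. Lower counts widen this distance, and all values share the same 4 libraries.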

How the data were processed

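The authors deposited whole-number counts, 1 row per mature miRNA and 1 column per library. The deposited CPM values, made by the authors, equal count over column total times 1e+06 within 0.0001 CPM in every row, and served only as this check. Per the labels' protocols, TRIzol served for RNA extraction and 1 µg entered New England Biolabs small RNA library preparation. The submitters' processing notes name bcl2fastq 2.18. For the aligner, counting tool, annotation and build the entry is: not given in the sources used here.

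Counts were scaled by TMM and tested with edgeR 4.0.16 (quasi-likelihood, treatment only) in R 4.3.3, after filterByExpr (minimum count 10, minimum total 15), which left 401 of 826 rows. The common dispersion was 0.00648. The script was tested on simulated counts drawn with this dispersion, which cannot show whether the spread between libraries is technical. Alternatives were other scalings and filters, DESeq2 1.42.0, limma-voom (limma 3.58.1), a replicate block and each library left out. Arm ratios used counts plus 0.5, for hairpins with 10 or more counts of each arm per library. Hairpin positions are from GENCODE release 29, sequences from RefSeq. Python 3.11.15 with SciPy 1.17.1 did the rest. All rows of the cluster are named, plus the 3 miRNAs nearest to miR-532-5p. Members and lists were chosen with earlier results of these data known.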

Additional observations from a re-analysis of the deposited data

How the results depend on the processing

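No cluster miRNA was called under any of the 12 alternatives, and the lowest adjusted p of a cluster row among them was 0.418 (each of the 4 libraries left out, 3 scalings, 2 filters, DESeq2, limma-voom and the replicate block). Over all miRNAs the count called ranged from 0 to 5 when 1 library was left out, with 5 without entinostat replicate 1, and was 0 otherwise. Of 120 recomputed log2 fold changes of cluster rows, 117 kept their direction. The exceptions were miR-500a-3p (main value 0.02; -0.059 without DMSO replicate 2, -0.022 without entinostat replicate 2, 0.072 without DMSO replicate 1) and miR-532-3p (main value -0.12; -0.34 without DMSO replicate 1 and 0.043 without DMSO replicate 2). The difference in the miR-532 arm ratio was -0.20 without DMSO replicate 2 and -0.13 without entinostat replicate 1 (range -0.20 to 0.23), and that of miR-500a ranged from 0.24 to 0.48 with 1 library left out; the cause was not tested. Upper quartile factors moved the median of all tested miRNAs to 0.12, and put miR-532-5p at -0.017, miR-501-3p at -0.017 and miR-660-5p at 0.54. The log2 ratio of the cluster's share ranged from -0.06 to -0.02 with 1 library left out. With the replicate number as a block, 0 miRNAs were called and 0 in the cluster. Same-numbered libraries deviated with r = -0.12 across 401 miRNAs, and no label says that a number marks a shared culture, so the numbers were not taken as pairs. The 3 rows with too few counts for the edgeR test entered the fits with no low-count filter and with DESeq2, which took 13 cluster rows and called 0 of them.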
